A study of Cucumis melo with 30 samples.

Results

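In fruit of 2 oriental melon cultivars, 23 of the 27427 genes of the deposited count table were read early and all but absent later. They were read at days 5 and 15 after anthesis, the opening of the flower, at means within 4-fold of each other. From day 25 on they were all but absent. Levels are CPM, read counts per 1000000 counts of the library, averaged over the 3 libraries of a group. A gene was taken if, in both cultivars, its mean was 10 CPM or more at days 5 and 15, the means of these 2 days lay within 4-fold of each other, and its mean was under 0.5 CPM at days 25, 30 and 35. The members were chosen by these measured means, so the early presence, the late absence and their occurrence in both cultivars are a description and carry no test.

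The series holds RNA sequencing of melon fruit from the cultivars YMR-WF and HDB-OF (YMR and HDB below) at 5, 15, 25, 30 and 35 days after anthesis. Each of the 10 combinations had 3 libraries, 30 in all, with 17299247 to 23261097 counts each, so that 1 count stood for 0.043 to 0.0578 CPM. All fruit was untreated as far as the labels say, and both cultivars carry the names the submitters gave, with no word on parentage. The labels name neither the part of the fruit taken nor the plants behind each library. The 3 libraries of a group may thus be technical repeats, and p-values measure only the spread between them.

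Melon fruit grows after anthesis first by cell division and then by cell expansion, while seeds form inside it, and later ripens. Transcripts typical of young fruit serve division, wall growth, photosynthesis or the developing seed, and those of ripening fruit serve softening, sugar, pigment and aroma metabolism. The table gives gene identifiers only. None of them, 0 of the 27427 and 0 of the 23, occurred in the RefSeq gene table of melon (assembly USDA_Cmelo_AY_1.0), so no name, function, position or sequence is given for any gene here, and the labelled tissue could not be checked against marker genes. In bulk tissue, fewer cells of a type and less RNA per cell cannot be told apart.

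A single library bears on all that follows. In HDB at day 15, the 23 genes together had 1714 CPM in library 3, against 679 and 740 CPM in libraries 1 and 2. In the other 3 early groups the summed level stayed closer together, at 1041 to 1253 CPM in YMR at day 5, 679 to 875 CPM in YMR at day 15 and 1062 to 1359 CPM in HDB at day 5. The median ratio of library 3 to its group mean was 1.56 over the 23 genes, against 1 over the 11018 genes with a mean of 10 CPM or more in HDB at day 15, where the scaling to CPM holds it near 1. Over all genes with at least 20 counts in a pair, chi-square per degree of freedom was 107 between libraries 3 and 1 and 68.8 between libraries 3 and 2, against 40.4 between libraries 1 and 2, within the 7.35 to 118 of the 30 replicate pairs of the series. Without this library 17 of the 23 genes still met the rule. The other 6, MELO3C018873, MELO3C005602, MELO3C020105, MELO3C016765, MELO3C003421 and MELO3C008252, then averaged under 10 CPM in HDB at day 15, so these were members only through library 3. Membership could hang on other single libraries too. In YMR at day 15, MELO3C014476 had 9.58, 9.43 and 26.4 CPM and MELO3C002437 had 3.61, 25.3 and 4.58 CPM.

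The early levels of the 23 genes spanned about an order of magnitude. MELO3C023361, MELO3C017674 and MELO3C012917 were highest, with 172, 151 and 106 CPM as the mean of the 4 early groups. MELO3C007618 followed with 87.5 CPM. Then came MELO3C024837, MELO3C009833 and MELO3C015762 at 52.3 to 52.6 CPM and MELO3C008028 at 40.5 CPM. The remaining 15 lay between 13.6 and 34.7 CPM. In descending order these were MELO3C023401, MELO3C007990, MELO3C018873, MELO3C004098, MELO3C005602, MELO3C005204, MELO3C020105, MELO3C019537, MELO3C025583, MELO3C016765, MELO3C003421, MELO3C014476, MELO3C026278, MELO3C002437 and MELO3C008252. CPM is not divided by gene length, so this order is of read numbers and not of transcript numbers.

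MELO3C023361 had 204, 218 and 191 CPM at day 5 and 146, 71.5 and 119 CPM at day 15 in the YMR libraries. From day 25 on the 9 YMR libraries held 6 counts of it. In HDB it had 155, 146 and 179 CPM at day 5 and 109, 90.8 and 430 CPM at day 15, with no count in the 9 later libraries. In HDB its ratio of day 15 to day 5 was 1.31 with library 3 and 0.625 without it.

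MELO3C017674 had 166, 120 and 114 CPM at day 5 and 63.9, 37.9 and 42.4 CPM at day 15 in YMR, where 6 counts were left at day 25, all in library 1, and none at days 30 and 35. In HDB it stood at 225, 212 and 273 CPM at day 5 and at 74.8, 76.4 and 404 CPM at day 15, and no later library had a count. Library 3 of HDB day 15 exceeded the higher of the other two 5.29-fold, the widest such gap among the 23 genes.

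MELO3C004098 was the only member without a count in any of the 18 libraries of days 25 to 35. It had 17.2, 16.5 and 26.6 CPM at day 5 and 19.1, 20.9 and 16.2 CPM at day 15 in YMR. In HDB it had 46.2, 32.2 and 30.2 CPM at day 5 and 37, 26.2 and 47.3 CPM at day 15. No count in the 3 libraries of a late group allows up to 0.0462 to 0.0541 CPM, taken as 3 counts over the group. Against that floor it was at least 366-fold lower at day 25 than at day 15 in YMR and at least 793-fold lower in HDB, or 675-fold without library 3 of HDB day 15. Before that, its ratio of day 15 to day 5 was 0.933 in YMR and 1.02 in HDB, or 0.873 in HDB without library 3.

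**Figure D1:**
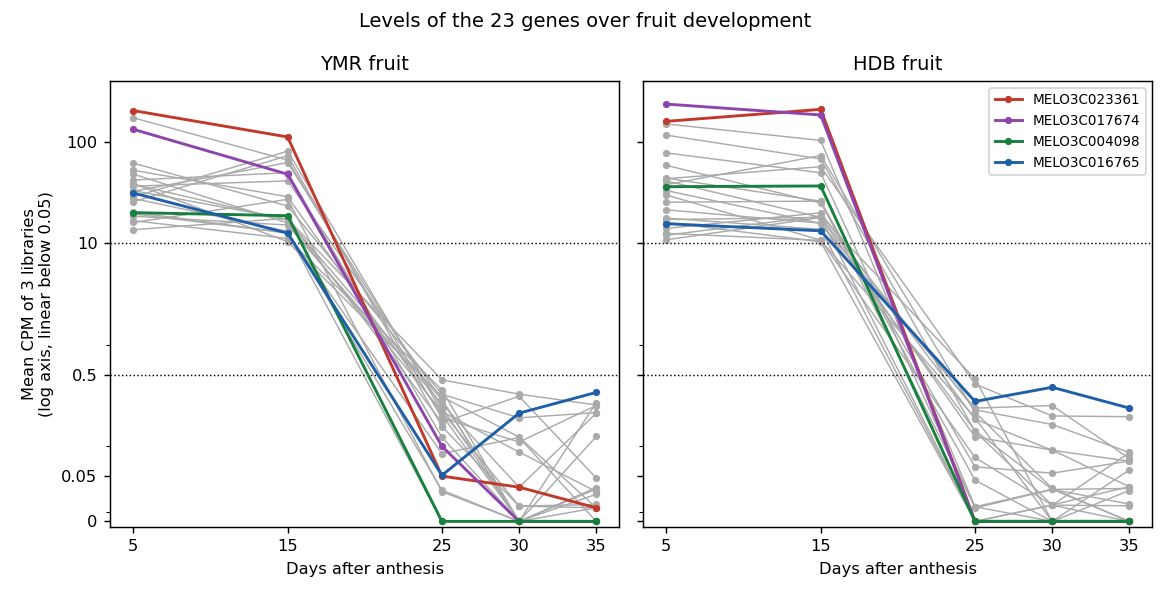
Mean CPM of 3 libraries for each of the 23 genes at 5 days, YMR left and HDB right, on a log axis that is linear below 0.05 CPM. Dotted lines mark the 10 and 0.5 CPM of the rule. MELO3C004098 is at 0 from day 25 on in both cultivars, while MELO3C016765 keeps between 0.0513 and 0.379 CPM.

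The contrast of early and late levels was rare among genes that met the early part of the rule. Of the 9101 genes with 10 CPM or more at days 5 and 15 and within 4-fold between these days in both cultivars, the 23 made up 0.253%. The median of the highest late group mean over the 9101 genes was 53.3 CPM. Under 0.5 CPM at day 25 were 39 of them in YMR, 51 in HDB and 28 in both. By day 35 there were 70 under 0.5 CPM in both cultivars. The 23 genes lie at the lower edge of a thin tail and not in a separate cloud, as the plot of early against late levels shows.

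**Figure D2:**
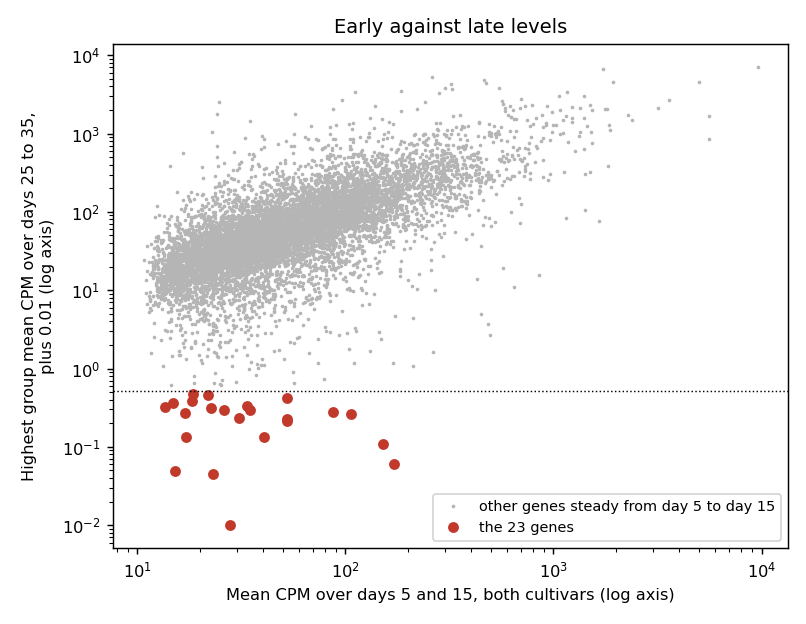
Mean CPM over days 5 and 15 against the highest group mean over days 25 to 35, plus 0.01, both on log axes. Shown are the 9101 genes at 10 CPM or more and within 4-fold between days 5 and 15 in both cultivars, labelled steady in the plot. The 23 genes, in red, lie below the dotted line at 0.5 CPM by construction, and few grey points lie just above it.

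The members nearest to each threshold show how far the rule shapes the list. The highest late means inside it were 0.46 CPM for MELO3C025583 and 0.448 CPM for MELO3C019537, and the nearest genes outside were MELO3C017501 at 0.505 CPM and MELO3C019435 at 0.598 CPM. The lowest early means inside were 10.4 CPM for MELO3C005602 and for MELO3C020105, with MELO3C026042 at 9.24 CPM and MELO3C026270 at 9.13 CPM outside. The largest folds between days 5 and 15 inside were 3.75 for MELO3C020105 and 3.03 for MELO3C018873, with MELO3C024938 at 4.02 and MELO3C011706 at 4.08 outside. Had every single library been required to pass the thresholds, 7 genes would have been left, MELO3C023361, MELO3C017674, MELO3C012917, MELO3C024837, MELO3C015762, MELO3C008028 and MELO3C004098.

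In none of the 23 genes did a late library reach the lowest early library of the same gene. The rule set early means at 10 CPM or more and late means under 0.5 CPM. This separation was therefore largely built in and is a description only. The narrowest gap was that of MELO3C002437, where the highest late library stood 5.62-fold below the lowest early one. Of the 276 early library values 28 were under 10 CPM, 22 of them at day 15, and the lowest was 2.66 CPM, for MELO3C008252 in library 1 of HDB day 15. Of the 414 late library values 11 reached 0.5 CPM, in 8 genes, and the highest was 0.697 CPM, for MELO3C019537 in library 3 of YMR day 25.

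Summed over the 23 genes, the mean level in YMR was 1134 ± 110 CPM on day 5 and 788 ± 100 CPM on day 15 (SD, n = 3). On days 25, 30 and 35 it was 4.13 ± 2, 1.58 ± 0.069 and 1.92 ± 0.52 CPM. In HDB the 5 days gave 1230 ± 150, 1044 ± 580, 2.83 ± 0.65, 1.44 ± 0.14 and 1.06 ± 0.19 CPM in the same order. Without library 3 the day 15 mean of HDB was 709 CPM. The fall to under 0.5 CPM lay between the samplings of day 15 and day 25, as the rule asked, and no sample shows its course within these days. The summed mean was also lower at day 15 than at day 5, and at day 30 than at day 25, in both cultivars. These steps were not tested.

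**Figure D3:**
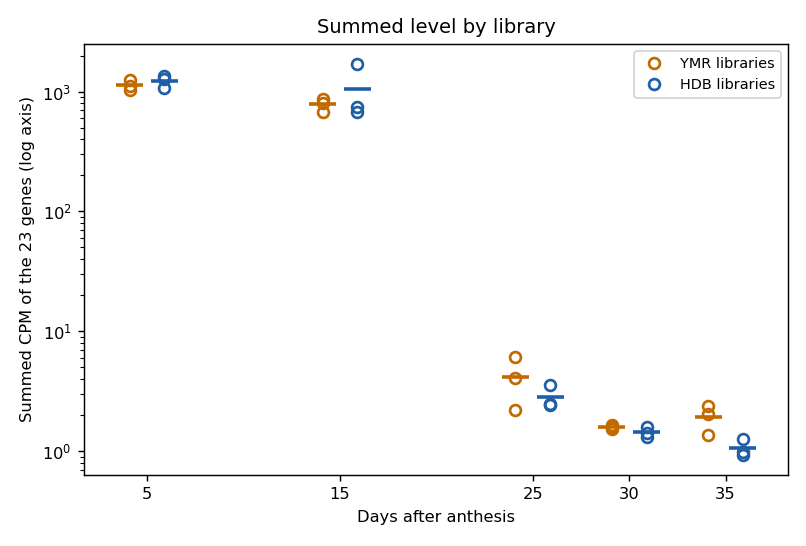
Summed CPM of the 23 genes in each library on a log axis, by day, YMR to the left of HDB at each day; bars are means of 3 libraries. Libraries of days 5 and 15 lie between 679 and 1714 CPM and those of days 25 to 35 between 0.923 and 6.13 CPM; library 3 of HDB day 15 is the highest point.

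At the single-gene level, the fold between day 15 and day 25 varied widely. MELO3C007618 had 14 counts at day 25, against 3678 at day 15, in YMR, and 1 count at day 25, against 6624 at day 15, in HDB. It was 263-fold lower at day 25 in YMR (exact 95% interval 156 to 481) and 6601-fold lower in HDB (1184 to 260756), where the interval is wide because it rests on 1 count. Intervals and floors cover counting error only. MELO3C002437 showed the smallest fold in YMR, 32.1 (20.8 to 52.2), and MELO3C025583 the smallest in HDB, 41.2 (28.7 to 61.4). With the genes without a count, 2 in YMR and 6 in HDB, set at their bound, the median fold was 245 in YMR and 293 in HDB. The HDB median is itself the bound of MELO3C002437, so these medians do not compare the cultivars. All folds were taken on total counts. The mean TMM factor, a scaling factor for library composition, was 1.14 at day 15 and 0.759 at day 25 in YMR, against 1.13 and 0.969 in HDB. On TMM-scaled library sizes the folds would be smaller, more so in YMR. Without library 3 of HDB day 15 the HDB median was 234, the fold of MELO3C007618 was 8103, that of MELO3C025583 was 33.2, and the smallest was 27.1, for MELO3C008252.

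What was left late in development was close to the limit of detection. Of the 414 values 210 were 0 counts. At day 25, 21 of the 23 genes had at least 1 count in YMR and 17 in HDB. At day 30 these numbers were 12 and 15, and at day 35 17 and 14. The late libraries of YMR held 243, 91 and 112 counts of the 23 genes at days 25, 30 and 35, and those of HDB 184, 80 and 59. At day 25, 14 genes had more CPM in YMR than in HDB, 7 had less and 2 were at 0 in both. Library 1 of YMR day 25 alone held 124 of the 243 counts, against 43 and 76 in the other two, and the 3 HDB libraries held 50, 56 and 78. The day 25 values of the cultivars overlap, at 6.13, 2.18 and 4.08 CPM in YMR and 2.44, 2.48 and 3.58 CPM in HDB.

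The residue was spread unevenly over the genes. MELO3C016765 was the only member with a count in all 18 late libraries, 35 counts in YMR and 52 in HDB, and MELO3C019537 had one in 17 of 18, with 60 counts in YMR and 33 in HDB. On days 25, 30 and 35, MELO3C016765 averaged 0.0513 ± 0.0021, 0.21 ± 0.096 and 0.337 ± 0.2 CPM in YMR, and 0.275 ± 0.08, 0.379 ± 0.11 and 0.236 ± 0.1 CPM in HDB (n = 3). Each YMR library of day 25 held 1 count of it, so the small SD there reflects library totals only and not precision. MELO3C009833 had 15 late counts in YMR and 49 in HDB. By contrast, MELO3C005602 had 17 counts in YMR, all at day 25, and none in HDB. MELO3C025583 had 2 late counts in YMR and 32 in HDB, 30 of these at day 25. MELO3C005204 and MELO3C026278 had 4 and 5 late counts in all.

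Between days 5 and 15 the rule allowed changes of up to 4-fold either way, and the members used much of that room. In 10 genes the day 15 mean was below the day 5 mean in both cultivars, in 3 above it in both, in 6 below it in YMR only and in 4 below it in HDB only. Ratios of day 15 to day 5 ran from 0.266 to 2.85 in YMR, with a median of 0.621, and from 0.358 to 1.94 in HDB, with a median of 0.781. Over the 9101 genes the median ratio was 0.982 in YMR and 1.05 in HDB, and 31.3% were below 1 and 34.4% above 1 in both cultivars. The tally rests on library 3 of HDB day 15. Without it the day 15 mean was lower in both cultivars in 15 genes, higher in both in 2, lower in YMR only in 1 and lower in HDB only in 5, with a median ratio of 0.579 in HDB over the 23 genes and of 1.04 over the 9101. The 6 genes that changed side were MELO3C023361, MELO3C009833, MELO3C004098, MELO3C005204, MELO3C003421 and MELO3C026278. These ratios were within the rule's range by choice and were not tested.

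MELO3C020105 had the lowest ratio in both cultivars, with 14.1, 6.7 and 10.3 CPM at day 15, against 45.3, 29.8 and 41.6 CPM at day 5, in YMR. In HDB it had 6.12, 10.6 and 15.5 CPM at day 15, against 34.4, 29 and 26.6 CPM at day 5. The libraries of the 2 days do not overlap in either cultivar. MELO3C024837 went the other way, with 76.4, 47.3 and 96.2 CPM at day 15, against 26.8, 20.2 and 30.2 CPM at day 5, in YMR. In HDB it had 34.4, 78.9 and 107 CPM at day 15, where library 1 lay within the day 5 range of 33.4 to 44.7 CPM. MELO3C009833 and MELO3C025583 were the other two with a higher mean at day 15 in both cultivars. In HDB this held for MELO3C009833 only through library 3, since its ratio was 0.944 without it, while MELO3C025583 still had 1.23 and MELO3C024837 1.49. MELO3C020105 then had a ratio of 0.278 in HDB, and MELO3C018873 the lowest, 0.239.

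The spread between the libraries of a group was wider in these genes than in genes at large. It is not free of the rule, since a mean of 10 CPM can be reached through 1 high library. In YMR the median coefficient of variation over 3 libraries was 18.1% at day 5 and 33.6% at day 15, against 12.1% and 14.4% over all genes with a mean of 10 CPM or more. In HDB it was 20.6% at day 5 and 55.3% at day 15, against 11.4% and 12.6%. At day 15 the spread was above the median of all such genes in 20 of the 23 genes in YMR and in all 23 in HDB, and above their 90th percentile in 9 and 17. Among the 17 members that averaged 10 CPM or more over libraries 1 and 2 of HDB day 15, the median over all 3 libraries was 50.7%, against 12.5% for the 10917 such genes. Over libraries 1 and 2 alone it was 38.9% against 9.43%. Genes at large were not matched to the members in level.

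At day 15 the members were mostly highest in the same library in HDB. There, 19 of the 23 genes were highest in library 3, where 38.2% of all genes at 10 CPM or more were highest. In 11 genes library 3 had at least 2 times the higher of the other two, against 2.21% of all such genes (243 of 11018). All 6 members that passed only through library 3 are among the 19, and 5 of them are among the 11, which their choice favoured. Of the other 17, 13 were highest in library 3 and 6 had at least 2 times the higher of the other two, against 36.8% and 1.56% of the 10917 genes at 10 CPM or more over libraries 1 and 2. In YMR, 15 of the 23 genes were lowest in library 2, a share near the 61.3% of all genes at 10 CPM or more that were lowest there.

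A few members ran against the rest. MELO3C007618, MELO3C019537 and MELO3C002437 were highest in library 2 of YMR day 15 and not highest in library 3 of HDB day 15. MELO3C007618 had 66.4, 85.7 and 35.9 CPM in the YMR libraries and 163, 92.2 and 56.2 CPM in those of HDB, where library 3 was the lowest. MELO3C002437 had 3.61, 25.3 and 4.58 CPM in YMR, so that 1 library carried its mean over 10 CPM, and 17, 9.67 and 14.5 CPM in HDB. MELO3C007990, highest in library 2 of HDB, was the fourth member not highest in library 3.

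**Figure D4:**
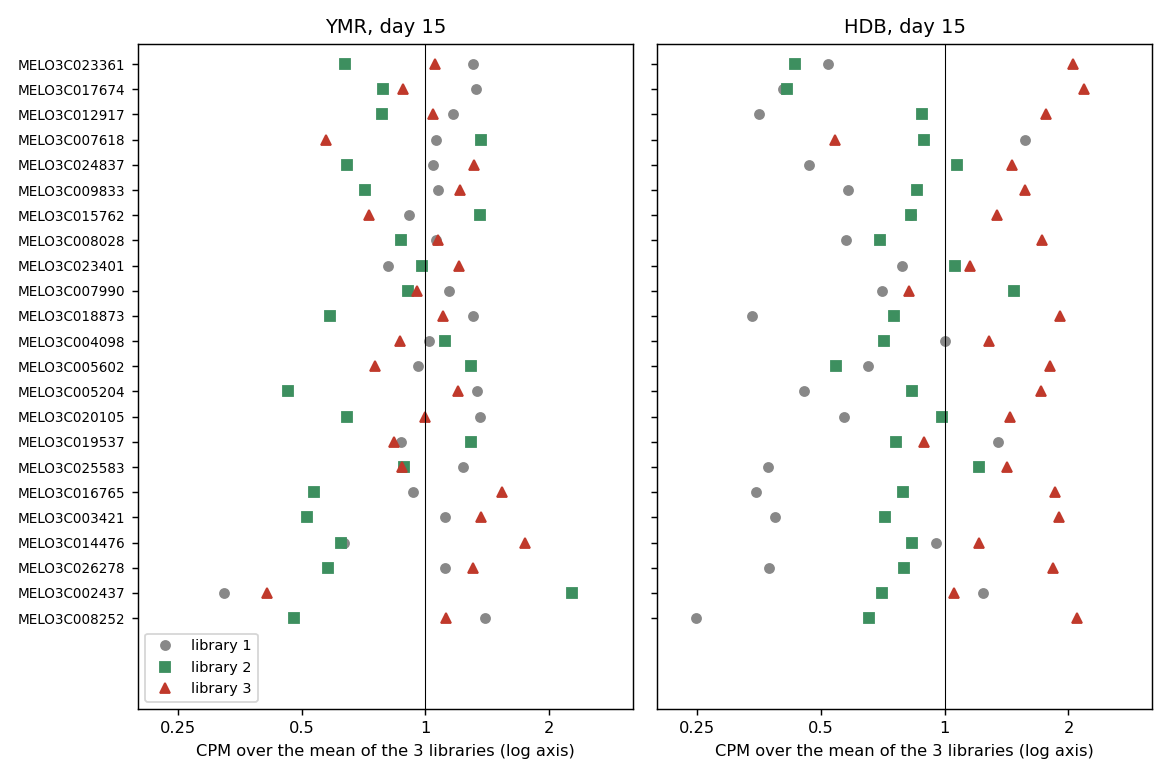
CPM of each library at day 15 over the mean of its group, on a log axis, for the 23 genes, YMR left and HDB right. In HDB the triangles of library 3 lie farthest right in 19 genes; in YMR the squares of library 2 lie farthest left in 15.

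The question of how the cultivars differed was open to a test, because the rule asked the same of both and compared them with each other nowhere. A gene nearly absent from 1 cultivar could not be a member, so very wide differences were kept out. Counts of all 30 libraries were fitted with edgeR, and p-values were adjusted over the 18426 genes tested. All 23 members passed the low-count filter. At day 5, 1 member was higher and 2 were lower in YMR, while 10.4% of all genes tested were called higher and 11.4% lower. At day 15, 2 members were higher and 4 lower in YMR, against 20.4% and 20.5% of all genes. The counts of 3 and 6 of 23 thus lay below or near the 21.8% and 40.9% of all genes called at these days. This did not hold at day 5 with only its 6 libraries in the fit. There 3 members were called higher and 4 lower, against 1211 and 1318 of the 17348 genes tested. In the fit to all 30 libraries the median log2 difference, YMR minus HDB, was 0.16 over the members and -0.03 over all genes at day 5. At day 15 it was -0.2 and 0.03. Single libraries turned the sign of the member median, which was 0.28 at day 15 without library 3 of HDB and -0.01 at day 5 without library 1 of YMR. Scaled by total counts alone, all genes split into 2239 higher and 1597 lower at day 5, in place of 1918 and 2094, with the same numbers of members called.

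MELO3C007618 had the widest difference at day 5. It had 25.9, 47.1 and 24.9 CPM in the YMR libraries and 158, 108 and 186 CPM in the HDB libraries, which do not overlap. The log2 difference was -2.27 (standard error 0.41, adjusted p = 0.00061 by edgeR), and it was called lower under all 12 alternatives. At day 15 its libraries overlapped, with 62.7 ± 25 CPM in YMR and 104 ± 54 in HDB (n = 3, log2 difference -0.74, edgeR adjusted p = 0.14). The difference at day 15 was smaller than at day 5, with a shift of 1.53 in log2 (standard error 0.56, adjusted p = 0.04 by edgeR), a call kept under 7 of 18 alternatives. Without library 3 of HDB day 15 the shift was 1.23 and not called (edgeR adjusted p = 0.087).

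MELO3C004098 was lower in YMR at both days. The log2 difference was -0.9 at day 5 (standard error 0.26, adjusted p = 0.028 by edgeR) and -0.98 at day 15 (standard error 0.26, adjusted p = 0.01 by edgeR), and the libraries did not overlap at either day. The day 15 call was kept under all 12 alternatives, with a log2 difference of -0.78 and an edgeR adjusted p of 0.04 without library 3 of HDB. The day 5 call was kept under 8 of 12 and was lost without libraries 1 or 2 of YMR, and without libraries 1 or 2 of HDB (edgeR adjusted p 0.05 to 0.1).

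MELO3C005602 was the member most in excess in YMR at day 15. The YMR libraries had 39.6, 53.2 and 31.1 CPM and the HDB libraries 6.73, 5.63 and 18.7 CPM, without overlap. The log2 difference was 2 (standard error 0.46, adjusted p = 0.0035 by edgeR) and 2.73 without library 3 of HDB, and it was called under all 12 alternatives. The gene was a member only through library 3, with an HDB mean of 10.4 CPM against the 10 CPM of the rule. Without that library it missed the rule. At day 5 it had 36.7 ± 11 CPM in YMR and 16.1 ± 3.3 CPM in HDB (n = 3), a log2 difference of 1.13 that was not called (edgeR adjusted p = 0.089).

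The other calls were less steady. MELO3C017674 was lower in YMR at day 15, at 48.1 ± 14 CPM against 185 ± 190 CPM in HDB (n = 3), with a log2 difference of -1.95 (standard error 0.55, adjusted p = 0.012 by edgeR). Without library 3 of HDB the difference was -0.69 and no longer called (edgeR adjusted p = 0.064). It was also lost with only the 6 libraries of day 15 in the fit (edgeR adjusted p = 0.095). MELO3C005204, at 13.1 ± 6.2 CPM in YMR and 26.1 ± 17 CPM in HDB, had a log2 difference of -1.02 (standard error 0.38, adjusted p = 0.04 by edgeR), and -0.4 (edgeR adjusted p = 0.37) without that library. Leaving out library 2 of YMR also ended this call (edgeR adjusted p = 0.16), as did scaling by total counts (0.057) and the 6-library fit (0.22). MELO3C015762, at 28.8 ± 9.3 CPM in YMR and 49.7 ± 15 CPM in HDB, had -0.77 (standard error 0.3, adjusted p = 0.045 by edgeR) and -0.52 (edgeR adjusted p = 0.2) without it. This call was also lost without library 1 or library 3 of YMR (edgeR adjusted p = 0.14 and 0.17) and with only the 6 compared libraries in the fit (0.15).

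Leaving out library 3 of HDB widened other differences. MELO3C008028 had 52.7, 43.3 and 53.3 CPM in YMR and 15, 18.2 and 45.1 CPM in HDB at day 15. Its log2 difference was 0.92 (standard error 0.34, adjusted p = 0.035 by edgeR), and 1.56 without that library (edgeR adjusted p = 0.00032). Its call was lost without any other single library of day 15 (edgeR adjusted p 0.055 to 0.15), in the 6-library fit (0.13) and with no low-count filter (0.051). MELO3C009833 and MELO3C008252 were not called in the fit to all libraries (edgeR adjusted p = 0.18 and 0.33) but were higher in YMR without library 3 of HDB, by 0.96 and 1.83 in log2 (edgeR adjusted p = 0.0082 and 0.0088). MELO3C007618 was then called lower in YMR, with a log2 difference of -1.04 (edgeR adjusted p = 0.042). Without library 3 of HDB, 4 members were called higher and 2 lower in YMR, against 2 and 4 with it. Of all 18648 genes tested in that fit, 3895 were called higher and 3616 lower. Among the 4, MELO3C005602 and MELO3C008252 averaged under 10 CPM in HDB at day 15 without library 3 and then missed the rule.

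MELO3C007990 was the only member higher in YMR at day 5, with 66.1, 59.6 and 59.9 CPM in YMR and 34.8, 26.6 and 38.1 CPM in HDB. The libraries do not overlap, and the log2 difference was 0.84 (standard error 0.28, adjusted p = 0.033 by edgeR). Its log2 difference lay between 0.72 and 0.96 under 12 alternatives, but the call was lost when any single library of the 2 groups was left out (edgeR adjusted p 0.053 to 0.13).

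**Figure D5:**
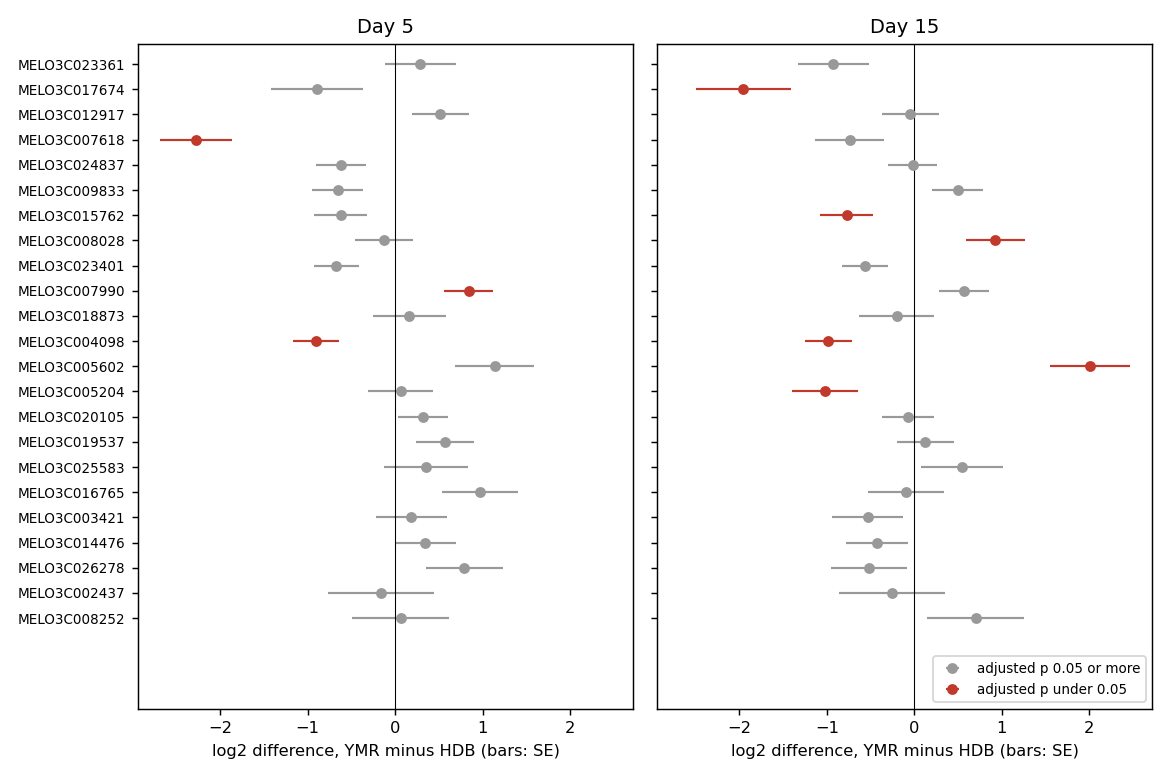
Log2 difference of each of the 23 genes, YMR minus HDB, with its standard error, at day 5 (left) and day 15 (right), from the edgeR fit to 30 libraries. Red points passed an adjusted p of 0.05: 1 higher and 2 lower in YMR at day 5, and 2 higher and 4 lower at day 15.

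Whether the difference between cultivars itself changed from day 5 to day 15 was tested as an interaction, which was added after the first counts were seen. The rule caps the change of each cultivar at 4-fold and so bounds this measure. A change toward YMR was called for 2 of the 23 members, MELO3C007618 and MELO3C009833, and a change toward HDB for none. Of all genes, under no such cap, 17.7% and 17% were called, so members and all genes are not matched here. At an unadjusted edgeR p under 0.05, 3 members changed toward YMR and 2 toward HDB, and DESeq2 called no member in either direction. Without library 3 of HDB day 15, 5 members were called toward YMR, MELO3C007618 not among them, and 0 toward HDB. Among the 5, MELO3C005602 and MELO3C008252 then averaged under 10 CPM in HDB at day 15 and missed the rule. In that fit 3479 of all 18648 genes tested were called toward YMR and 3074 toward HDB. MELO3C009833 had 87.1, 58 and 98.6 CPM at day 15, against 28.7, 30.7 and 26.9 CPM at day 5, in YMR. In HDB it had 33.2, 48.8 and 89.2 CPM at day 15, against 51.7, 44.7 and 33.9 CPM at day 5, which overlap. Its log2 difference between cultivars was 0.5 at day 15, against -0.66 at day 5, a shift of 1.15 (standard error 0.41, adjusted p = 0.034 by edgeR). The shift reached 1.62 without library 3 of HDB day 15 (edgeR adjusted p = 0.0018), but its call was kept under only 6 of 18 alternatives.

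The pattern was also met in a single cultivar by 27 genes in YMR and by 54 in HDB. Of the 27 genes that met it in YMR only, 15 missed the early level in HDB, 10 the 4-fold range and 9 the late threshold, and 7 missed the late threshold alone, 2 of them at day 25 alone. Of the 54 genes that met the pattern in HDB only, 25 missed the early level in YMR, 19 the 4-fold range and 33 the late threshold, some more than 1 of these. For 23 of the 54 the late threshold was the only one missed, and 21 of these were at or above 0.5 CPM in YMR at day 25, with a median of 1.16 CPM over the 23. In 14 of the 23 day 25 was the only day at which YMR exceeded the threshold. No test was made of the difference between 2 and 14 genes. The TMM factor, a scaling factor for library composition, averaged 0.759 in YMR and 0.969 in HDB at day 25. CPM set on TMM-scaled library sizes left 18 of the 23 members. MELO3C019537 then exceeded the late threshold, at 0.582 CPM in YMR at day 25. The other 4, MELO3C005602, MELO3C020105, MELO3C026278 and MELO3C008252, were under 10 CPM in an early group, where the mean factors were 1.13 to 1.2.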

How the data were processed

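RNA was taken with Trizol from frozen fruit and made into Illumina cDNA libraries, per the labels' protocols. HISAT2 (alignment) and HTSeq (read counting) are named in the submitters' processing notes. The sources used here give no version, strand setting, genome build or annotation. The authors deposited raw counts, 1 whole number per gene and library, in a table whose 30 columns match the sample titles. All were used. Genes sharing reads with near-identical copies or overlapping neighbours could not be recognised.

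The members and lists were chosen with earlier results of these data known. Lists by product names (cell types, pathways) could not be applied, since no identifier matched the 28628 entries of the reference table.

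CPM values were computed from the deposited counts and column totals. The tests used edgeR 4.0.16 (R 4.3.3): filterByExpr, TMM, 1 mean per group, robust quasi-likelihood F tests, two-sided, Benjamini-Hochberg adjusted p under 0.05 called. SE is the absolute log2 difference over the square root of F. Total counts were 17299247 to 23261097 per library. No 2 libraries were identical, and chi-square per degree of freedom between replicates was 7.35 to 118. Ratios of counts have exact conditional binomial intervals at 95%. Alternatives were RLE factors, total counts, DESeq2 1.42.0, no filter, a replicate block, only the compared groups, and single libraries left out. Named are the 8 highest members, up to 4 called per direction and day, those without late counts, and the 2 genes nearest each threshold on either side. Further members were named after their values were seen.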

Additional observations from a re-analysis of the deposited data

Results flagged for a closer look

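For 2 of the 23 genes a change of the difference between cultivars from day 5 to day 15 was called. The test of that change was added after the first counts were seen. Of all genes tested 34.8% were called by edgeR, but the rule's 4-fold cap bounds the measure in the 23 genes only. For MELO3C007618 the log2 difference, YMR minus HDB, at day 15 minus that at day 5 was 1.53 (edgeR adjusted p = 0.04). It had 1.92 times its day 5 level at day 15 in YMR and 0.688 times in HDB. For MELO3C009833 the same measure was 1.15 (edgeR adjusted p = 0.034), with day 15 at 2.83 times day 5 in YMR and 1.31 times in HDB. Over 18 alternatives the first ranged from 1.17 to 2.07 (edgeR or DESeq2 adjusted p 0.007 to 0.17, called in 7) and the second from 0.9 to 1.62 (0.0018 to 0.083, called in 6). Without library 3 of HDB at day 15 the first was 1.23 and not called (edgeR adjusted p = 0.087), while the second was 1.62 (edgeR adjusted p = 0.0018).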

How the results depend on the processing

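The 23 genes depend on the thresholds. With 0.25 CPM as the late limit 10 were left, with 1 CPM there were 38, with 5 CPM as the early level 46, with 20 CPM 8, within 2-fold 13, and with every library past the thresholds 7. Leaving 1 replicate number out of all groups gave 17 to 27, of which 15 to 21 were among the 23, and library 3 of HDB day 15 alone, chosen after seeing the data, gave 17.

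Of the members called at day 5, the number higher in YMR was 0 to 1 and the number lower 1 to 2 when single libraries were left out, and with only the 6 compared libraries 3 were higher and 4 lower. At day 15 leaving out single libraries gave 1 to 4 higher and 2 to 5 lower. With only the compared libraries 1 was higher and 1 lower, against 1585 and 1874 of all 16870 genes tested. With no low-count filter 1 was higher. For the change of the difference from day 5 to day 15, single libraries left out gave 0 to 5 members toward YMR and 0 to 4 toward HDB. Toward YMR, total counts gave 1, and no filter, only the compared groups and DESeq2 gave 0. Some of these fits held fewer libraries, and the causes of the changes were not tested.

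The genes called kept their direction in all 144 combinations of a call with an alternative setting, and their call in 93. Many of these combinations come from the same fit. All cover genes already called and refit largely the same counts, so a kept direction was mostly given in advance. The replicate number is not a pairing by the labels: deviations of same-numbered YMR and HDB libraries correlated at 0.0305 to 0.315 on day 5 and -0.164 to 0.175 on day 15. With the replicate block 1 member was higher and 2 lower at day 5, 2 higher and 3 lower at day 15, and 2 and 0 changed toward YMR and HDB. MELO3C015762 then had an edgeR adjusted p of 0.06 at day 15. Depth limits late values, since 1 count stands for 0.043 to 0.0578 CPM.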
